A study of Mus musculus with 8 samples.

Results

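Trace amine-associated receptors (Taars) were followed through ribosome footprints (mRNA fragments that a ribosome shields from nuclease) and input RNA in cells sorted from the mouse main olfactory epithelium. The 10 genes described are Taar2, Taar3, Taar4, Taar5, Taar6, Taar7d, Taar7f, Taar8b, Taar8c and Taar9, chosen by gene name from a deposited table of 22553 genes that holds 15 Taar symbols. Cells were sorted by green fluorescence from a Ngn1-GFP transgene, which marks neuronal progenitors and immature olfactory neurons, or from OMP-ires-GFP, a knock-in that marks mature olfactory neurons. All mice carried floxed Mex3a. Control mice had flox/flox or flox/+ Mex3a and no Cre, and KO mice had flox/flox Mex3a with the Foxg1iresCre driver, so Cre presence differs together with the deletion. For the OMP-GFP KO libraries the genotype tag reads OMP-ires-Cre while the description reads OMP-ires-GFP. The sources used here give no age or sex of the mice and do not say whether animals were pooled. There are 8 footprint libraries, 2 for each of 4 groups, but the table has only 1 footprint column and 1 RNA column per group. Values thus come from the authors, each standing for a whole group with no spread, and no difference between groups has a replicate check or a test.

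Taars are G-protein-coupled receptors that detect volatile amines. Most of them work in olfactory sensory neurons, where they take the place of an odorant receptor, and each such neuron expresses a single receptor gene. They signal through the same olfactory G protein, adenylyl cyclase and cyclic-nucleotide-gated channel as odorant receptors, and their axons gather in a dorsal part of the olfactory bulb. In mouse, known ligands include isoamylamine for Taar3, phenylethylamine for Taar4, trimethylamine for Taar5, N-methylpiperidine for Taar7f and tertiary amines for Taar9. Taar1, by contrast, is known from brain and other tissues outside the olfactory epithelium. Its footprint and RNA counts were 0 in all 4 groups, where 3 counts, the value set here for a count of 0, equal 0.673 to 0.990 CPM (counts per 1000000) of footprints.

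The family lies on chromosome 10 between 23920406 and 24109534 (GRCm38.p6), and all 10 members were found in the RefSeq table by symbol. Taar2 (ENSMUSG00000059763) spans 3012 bases for a coding length of 1020 and so holds an intron. The gene models of the other members but Taar8c have the length of their coding sequence, for example 1038 bases for Taar6 (ENSMUSG00000045111). RefSeq start sequences were given for 8 members and 3 relatives, and none for Taar4 and Taar8c. The first 50 bases from the start codon are printed for the members whose footprints carry the comparisons. In the first set, capitals mark the start codon of 3 members read from the plus strand, with the Taar2 stretch taken from its first exon onwards without regard to the intron. They lie at chr10:23938572-23938621, chr10:23949558-23949607 and chr10:23970706-23970755.
Taar2: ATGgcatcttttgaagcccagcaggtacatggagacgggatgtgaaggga
Taar3: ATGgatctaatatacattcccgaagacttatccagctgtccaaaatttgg
Taar5: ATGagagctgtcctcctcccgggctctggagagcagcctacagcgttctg

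Taar6, Taar8b and Taar9 are read from the minus strand, at chr10:23985597-23985646, chr10:24092245-24092294 and chr10:24109485-24109534. Capitals mark the longest run that these 3 starts share, 16 bases, which shows how alike relatives are even where they differ in level.
Taar6: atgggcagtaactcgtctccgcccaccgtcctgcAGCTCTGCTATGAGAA
Taar8b: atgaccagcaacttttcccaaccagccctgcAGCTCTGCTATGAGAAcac
Taar9: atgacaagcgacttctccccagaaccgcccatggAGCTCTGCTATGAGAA

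Among the Taar7 genes, the starts of 4 are alike, and they are shown because footprints of a single such gene can be assigned only where the copies differ. The start of Taar7a was unlike them, with 20 of 50 bases different from Taar7d. Capitals mark bases that differ from Taar7d, at chr10:24027222-24027271. Taar7b, which like Taar7e is no member of the set of 10, differed from it at 3 of 50 bases, Taar7e at 1 and Taar7f at 8. They lie at chr10:23999939-23999988, chr10:24037614-24037663 and chr10:24049510-24049559, all on the plus strand. The longest run shared with Taar7d was 19 bases for Taar7b, 25 for Taar7e and 19 for Taar7f, while Taar6 and Taar8b shared 21. No pair of the starts shared any of the 21 windows of 30 bases, the rest of the coding sequences was not compared, and the sources used here do not say how reads that match several copies were treated. Single values of the like Taar7 genes and of the Taar8 genes are uncertain for that reason.
Taar7b: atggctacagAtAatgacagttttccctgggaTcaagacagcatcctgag
Taar7d: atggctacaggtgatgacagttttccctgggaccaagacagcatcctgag
Taar7e: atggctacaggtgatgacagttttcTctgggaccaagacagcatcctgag
Taar7f: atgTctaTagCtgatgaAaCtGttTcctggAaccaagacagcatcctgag

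Footprint columns held 3031489 to 4456989 counts and RNA columns 26946592 to 89327877. Footprints on Mex3a, the deleted gene, which encodes an RNA-binding ubiquitin ligase, numbered 437 and 28 in the control and KO of Ngn1-GFP cells and 16 and 5 in those of OMP-GFP cells. Its RNA counts were 9645 and 656, and 387 and 38, all over the whole coding sequence and not the deleted stretch alone. The sorts were checked against 10 mature neuron markers, whose footprints summed to 12615 CPM in Ngn1-GFP and 18025 in OMP-GFP control cells, and 10 immature neuron and precursor markers, which summed to 5597 and 2494. Omp footprints were near level (2826 and 2702 CPM) and did not separate the sorts. Scaled as the ratios below, their log2 ratio of OMP-GFP over Ngn1-GFP controls was 0.15. Omp RNA was somewhat higher in OMP-GFP control cells (866 and 1097 CPM, a scaled log2 ratio of 0.39). Markers of sustentacular cells, the support cells of the epithelium, summed to footprints of 5457 and 676 CPM in the control and KO of Ngn1-GFP cells and to 162 and 430 in those of OMP-GFP cells, with all 10 markers detected in each column. In the Ngn1-GFP control RNA column, 377 genes exceeded the other 3 RNA columns by 8-fold or more and held 4.86% of its counts, and no Taar was among them. Their part in the Taar results was not tested.

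The 10 members were a small share of the receptor message. Summed over the 10 genes, footprints were 367 and 208 in the control and KO of Ngn1-GFP cells and 494 and 822 in those of OMP-GFP cells, which is 82.3, 68.6, 138 and 200 CPM. RNA sums were 3078, 966, 1680 and 1692, which is 34.5, 34.8, 52.7 and 62.8 CPM. The OMP-GFP KO column was thus the highest in both assays, and the Ngn1-GFP KO column the lowest in footprints. Set against the 1104 odorant receptor genes (Olfr), Taars made up 0.979% of receptor footprints in Ngn1-GFP controls (exact Clopper-Pearson 95% interval 0.882 to 1.08) and 0.754% in the KO (0.655 to 0.863). In OMP-GFP cells they made up 1.42% in controls (1.29 to 1.55) and 2.07% in the KO (1.93 to 2.21). Their shares of receptor RNA were 0.790%, 0.862%, 1.13% and 1.25%. Over all 15 Taar genes the RNA shares were 1.12%, 1.09%, 1.43% and 1.79%, so the Ngn1-GFP KO was then slightly below its control, not above it. Intervals here and below cover counting error only and leave out variation between libraries and mice. PCR copies were counted without molecular identifiers, so the intervals may be too narrow even for counting error.

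**Figure D1:**
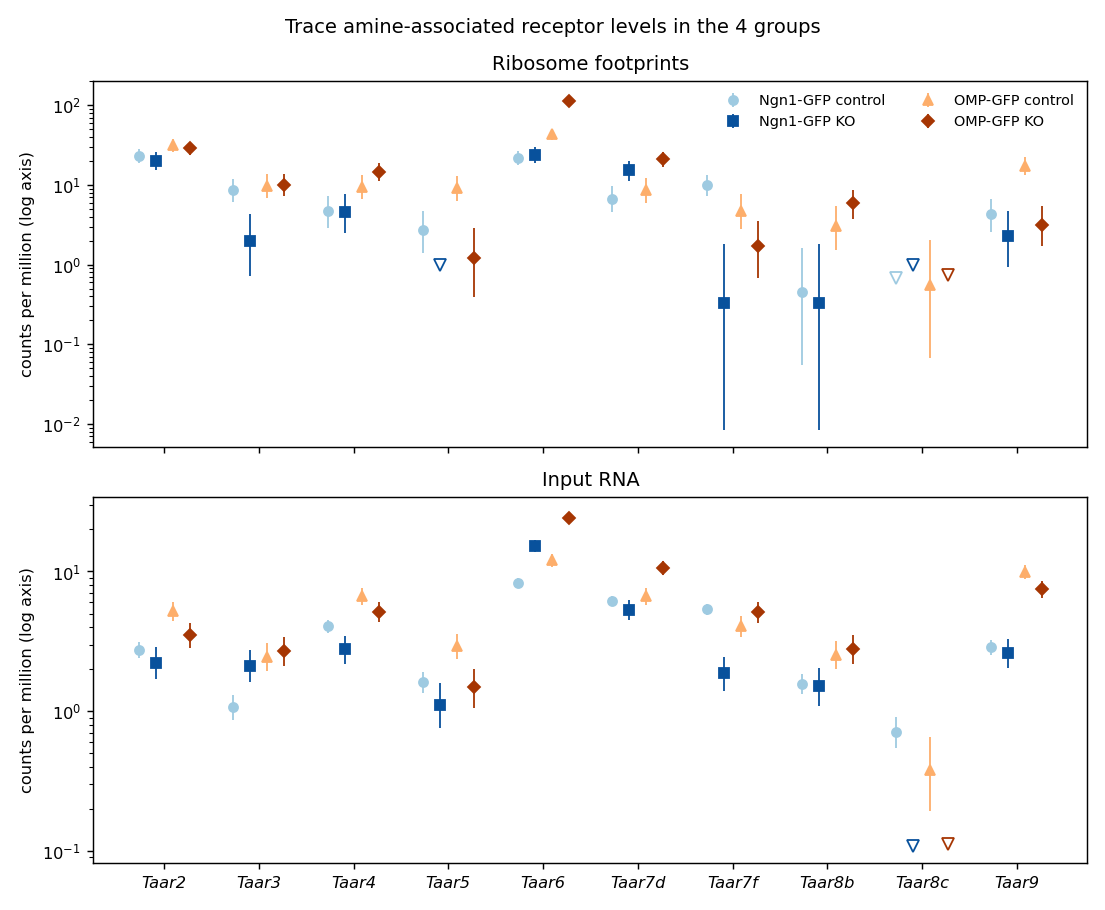
CPM (log axis) of footprints (top) and input RNA (bottom) for the 10 members in the 4 groups, with exact 95% Poisson intervals. Open triangles mark a count of 0, drawn at the level of 3 counts. Taar6 and Taar2 lead the footprints, Taar6 leads the RNA in each group, and Taar8c has footprints in 1 group and RNA in 2.

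Taar6 and Taar2 gave most of the footprints. Per length, Taar6 had the highest authors' RPKM (CPM per kilobase of coding length) in 3 groups, at 22.9 in Ngn1-GFP KO cells and, for OMP-GFP cells, 42.0 in the control and 109 in the KO. In the Ngn1-GFP control it was second to Taar2 (21.2 against 22.7, a difference within counting error). Taar2 was at 22.7, 19.7, 31.0 and 28.4, given here and below as Ngn1-GFP control and KO followed by OMP-GFP control and KO. These 2 genes stood above each other member in all 4 columns, though in the Ngn1-GFP KO the step from Taar2 to Taar7d (14.1) was within counting error.

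Below them the order was mostly unresolved. Of the 9 steps between neighbours in the order of RPKM, 2 and 1 were beyond counting error in the control and KO of Ngn1-GFP cells and 4 and 4 in those of OMP-GFP cells. In the OMP-GFP control Taar9 followed at 16.6, then Taar3, Taar4, Taar5 and Taar7d between 8.05 and 9.48, Taar7f at 4.41 and Taar8b at 2.97, with no step beyond counting error from Taar3 to Taar8b. In the OMP-GFP KO the third place was held by Taar7d at 19.7, and Taar9 was at 3.03. Taar8c had 0 footprints in 3 columns and 2 in the OMP-GFP control. Its RNA counts were 63, 0, 12 and 0, so both KO columns held none, and no footprint comparison of Taar8c was possible.

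RNA ranked the members differently. By the authors' TPM, their length-scaled RNA unit, Taar6 led each column, at 10.2, 21.2, 16.6 and 32.7. Taar7d came second in the Ngn1-GFP control (7.32), the Ngn1-GFP KO (7.14) and the OMP-GFP KO (13.9), and Taar9 in the OMP-GFP control (13.6). Taar2 held only the fifth or sixth place in each column, at 3.43, 3.16, 7.35 and 4.89. With more reads, 7, 3, 4 and 6 of the 9 steps between neighbours were beyond counting error in RNA.

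Footprints per RNA read, the share of a column's footprints divided by the share of its RNA, show where that difference in rank lies. A value of 1 means an equal share in both assays, and the median over genes with at least 10 counts in both was 1.20, 1.07, 0.995 and 0.946. The median of Olfr genes was higher, at 2.24, 2.80, 2.38 and 2.24. Taar2 had 103, 61, 113 and 119 footprints on 245, 62, 166 and 95 RNA reads. Its values of 8.43 [6.63, 10.6], 9.02 [6.23, 13.1], 6.06 [4.73, 7.75] and 8.23 [6.23, 10.9] exceeded 98.4%, 99.0%, 98.4% and 99.0% of genes. All 4 lay above the Olfr medians as well. The authors' deposited table, which scales this ratio by a constant of 1.33 to 1.38 per column, lists 11.3, 12.1, 8.04 and 11.3 for Taar2.

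Other members spread widely around the all-gene medians. Taar6 was at 2.65, 1.56, 3.64 and 4.74, lowest in the Ngn1-GFP KO and highest in the OMP-GFP KO. Taar3 was at 7.93 [5.30, 11.7] in the Ngn1-GFP control and at 4.0 and 3.69 in the OMP-GFP columns, but at 0.932 [0.329, 2.15] in the Ngn1-GFP KO, where it rested on 6 footprints. Taar7d was at 1.09, 2.85, 1.30 [0.863, 1.90] and 2.01 [1.56, 2.56], and both KO point values lay above both controls. The 2 OMP-GFP intervals overlap. Taar9 was at 1.49 [0.881, 2.37], 0.891 [0.346, 1.93], 1.75 and 0.425, so both KO point values lay below both controls. Its 2 Ngn1-GFP intervals overlap, and the KO value there rests on 7 footprints. Taar7f, at 1.84, 0.176, 1.17 and 0.333, had the same order, with 1 and 7 footprints in the KO columns. Taar4 was at 1.16, 1.67, 1.43 and 2.84, again highest in the OMP-GFP KO. Taar5 was at 1.67 and 3.16 in the controls, at 0.821 in the OMP-GFP KO and without a footprint in the Ngn1-GFP KO. Taar8b had 2 footprints on 140 RNA reads and 1 on 42 in the Ngn1-GFP columns, a ratio of 0.286 and 0.218, against 1.21 and 2.10 in the OMP-GFP columns. The Ngn1-GFP values of Taar8b rest on too few footprints to be read as a level.

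**Figure D2:**
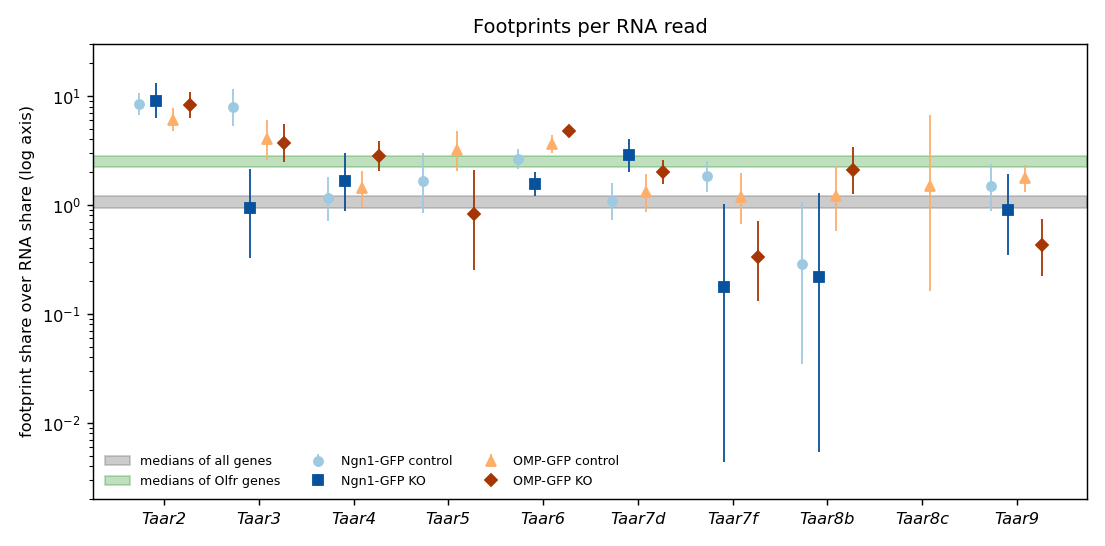
Footprint share over RNA share (log axis) for each member in each group with 95% counting intervals. The grey band spans the medians of all genes in the 4 groups (0.946 to 1.20) and the green band those of Olfr genes (2.24 to 2.80). Taar2 lies between 6.06 and 9.02 in the 4 groups.

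The deletion of Mex3a was compared first in Ngn1-GFP cells, the population with the most Mex3a footprints. Summed Taar footprints and RNA were close to level there, with a log2 ratio of KO over control of -0.20 [-0.45, 0.05] for footprints and -0.04 [-0.15, 0.06] for RNA. Scaled by library size alone, the footprint ratio was -0.26 [-0.52, -0.01], slightly lower in the KO. Within the family, Taar7d footprints were higher in the KO column and those of Taar7f and Taar3 were lower. Because sorted bulk cells were measured, fewer cells that express a receptor and less message per cell cannot be told apart. Ratios used TMM scaling, a trimmed mean that sets the bulk of genes level, and a gene needed 20 counts in the pair of columns.

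Taar7f had 44 footprints in the control and 1 in the KO, a log2 ratio of -4.84 [-10.17, -2.28]. Its RNA went from 478 to 52, -1.57 [-2.01, -1.16], so both assays were lower. Its relative Taar7d went the other way in footprints, from 30 to 46 (1.24 [0.54, 1.95]), with RNA from 552 to 148 reads (-0.27 [-0.54, -0.01]). Added together, Taar7d and Taar7f had 74 and 47 footprints (-0.03 [-0.59, 0.51]), so the footprint sum was near level while its members differed in opposite directions. The RNA of the pair was lower (-0.74 [-0.96, -0.52]) and its footprints per RNA read higher (0.70 [0.13, 1.27]). The isoamylamine receptor gene Taar3 had 38 and 6 footprints (-2.04 [-3.57, -0.79]) while its RNA was higher (96 and 59 reads in columns of unlike depth, 0.93 [0.43, 1.41]). Its footprints per RNA read were 7.82-fold lower in the KO.

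By the description used here, at least 2-fold apart with a counting interval that excludes 1, footprints of 1 of the 7 members measured were higher and 2 lower. Over all 12554 genes measured 6.49% were higher and 10.8% lower. Over Olfr genes 20.4% were higher and 16.7% lower. In RNA, 0 of 10 members were higher and 2 lower, Taar7f and Taar8c, where the background was 4.4% and 11.9%. Of Olfr genes 5.88% were higher in RNA and 22.0% lower. Taar8c RNA went from 63 counts to 0. With the 0 set to 3 counts the log2 ratio was -2.76, and its counting interval ended at -2.42. In footprints per RNA read Taar7d was at least 2-fold higher and Taar3 and Taar7f lower, 1 and 2 of 7 members, against 8.03% and 10.2% of genes. For Olfr genes it was 25.8% and 12.4%. In the same columns 9 of 10 sustentacular markers had at least 2-fold lower footprints in the KO and 0 higher, and their part in the Taar results was not tested. Counts this small often differed: among genes with 20 to 50 footprints in the pair 45.7% were at least 2-fold apart, and among those with 50 to 200 it was 25.2%. Taar3 (44 in the pair) and Taar7f (45) belong to the first range and Taar7d (76) to the second. Taar3 and Taar7f reached 20 counts through the control column, where they are high.

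The remaining members gave no such difference in Ngn1-GFP cells. Taar2 footprints were 103 and 61 (-0.13 [-0.61, 0.34]), those of Taar4 21 and 14 (0.04 [-1.05, 1.08]) and those of Taar9 19 and 7 (-0.82 [-2.31, 0.49]). Taar6 footprints were 98 and 72 (0.18 [-0.28, 0.63]) on RNA that was higher, 741 and 423 reads (0.82 [0.64, 0.99]). Without Taar6 the RNA sum was lower in the KO (-0.48 [-0.61, -0.34]), so the level sum of RNA rested on this gene. The footprint sum without Taar6 was lower too (-0.36 [-0.67, -0.06]). Taar5 (12 and 0 footprints), Taar8b (2 and 1) and Taar8c (0 and 0) had too few footprints. The RNA of Taar5, 144 and 31 reads, gave -0.59 [-1.20, -0.02], and that of Taar8b, 140 and 42 reads, gave -0.11 [-0.64, 0.40].

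**Figure D3:**
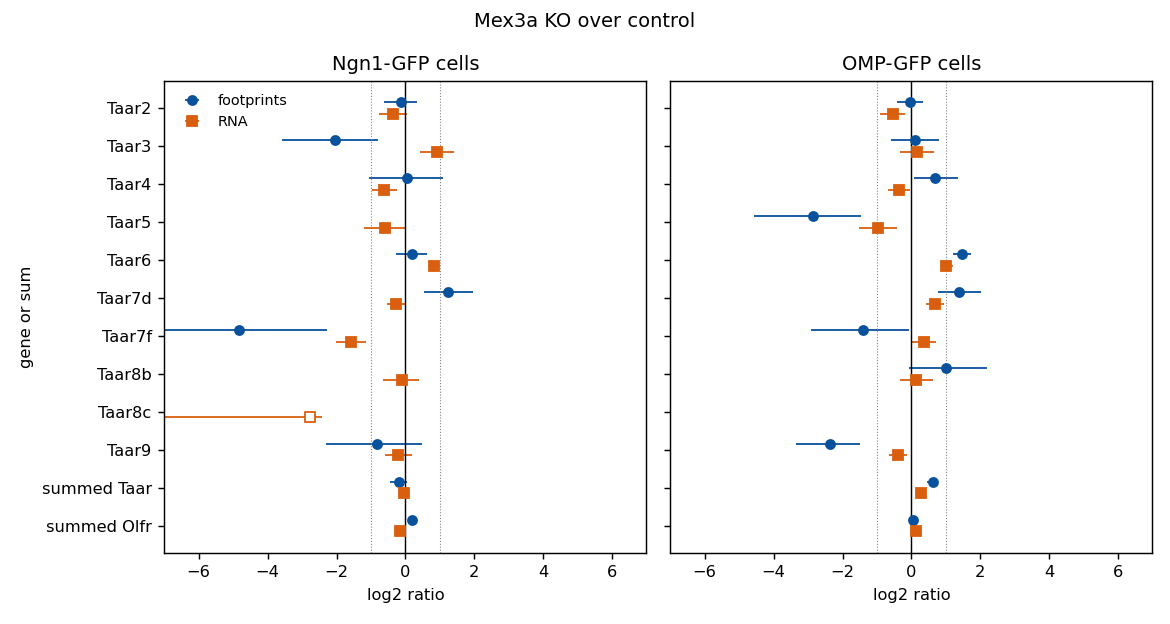
Log2 ratio of KO over control in Ngn1-GFP cells (left) and OMP-GFP cells (right) for footprints (circles) and RNA (squares), with 95% counting intervals. Dotted lines mark 2-fold, genes with under 20 counts in the pair are left out, and the open square is a ratio with 0 set to 3 counts. Single members lie on both sides of 0 in each population. The sums are at -0.20 and -0.04 in Ngn1-GFP cells and 0.61 and 0.27 in OMP-GFP cells, for footprints and RNA.

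In OMP-GFP cells the sum of the 10 members was higher in the KO, and without Taar6 it was near level. Summed footprints had a log2 ratio of 0.61 [0.45, 0.78] and summed RNA 0.27 [0.17, 0.37]. Without Taar6 they were -0.05 [-0.26, 0.17] and -0.05 [-0.17, 0.07]. Taar6 footprints went from 156 to 466, 2.75-fold higher (1.46 [1.19, 1.73]), and its RNA from 382 to 646, 2.02-fold higher (1.02 [0.83, 1.20], or 0.999 scaled by library size alone, just under 2-fold). The 5 Taar genes outside the 10, mostly Taar7 genes, were also higher in sum, at 0.58 [0.19, 0.97] in footprints and 1.00 [0.83, 1.18] in RNA. The share of Taar6 in the summed footprints of the 10 was 31.6% (27.5 to 35.9) in the control and 56.7% (53.2 to 60.1) in the KO. Footprints per RNA read of Taar6 were 1.36-fold higher (0.44 [0.12, 0.76]).

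Taar7d was also higher, with 31 and 87 footprints (1.37 [0.76, 2.01]) and 212 and 285 RNA reads (0.69 [0.42, 0.95]). Footprints of Taar5, Taar9 and Taar7f were lower. The trimethylamine receptor gene Taar5 had 33 and 5 footprints (-2.84 [-4.56, -1.48]) and 93 and 40 RNA reads (-0.96 [-1.53, -0.41]). Taar9 had 62 and 13 footprints (-2.37 [-3.36, -1.50]) on 315 and 201 RNA reads (-0.39 [-0.65, -0.13]). Taar7f had 17 and 7 footprints (-1.40 [-2.91, -0.06]) with RNA of 129 and 138 reads (0.36 [-0.00021, 0.71]). For these 3 genes the footprint difference was larger than that of RNA, and footprints per RNA read were lower by 3.69-fold, 3.96-fold and 3.38-fold.

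Of 9 members measured in footprints, 2 were at least 2-fold higher and 3 lower, against 7.12% and 8.54% of all 11160 genes. Among Olfr genes 15.4% were higher and 15.1% lower. In RNA, 1 of 9 members was higher and 0 lower, against 4.4% and 3.89% of 14351 genes and 9.56% and 9.46% of Olfr genes. In footprints per RNA read, Taar4 was at least 2-fold higher and Taar5, Taar7f and Taar9 lower, 1 and 3 of 9, against 7.13% and 9.08% of genes. For Olfr genes it was 13.3% and 16.4%. By library size alone Taar4 was at 0.990 on the log2 scale, under 2-fold. Taar6 has 622 footprints in the pair, and among genes with 200 to 1000 such counts 5.23% were at least 2-fold apart. For the other 4 the ranges of 20 to 50 and 50 to 200 counts apply, where 41.3% and 22.0% of genes were that far apart. Taar5 and Taar9 reached 20 counts through the control column, where they are high. In the same pair of columns 6 of 9 sustentacular markers had at least 2-fold higher footprints in the KO and 0 lower, and 5 of 6 nasal gland markers were higher and 0 lower. Summed gland markers were 71.6 and 487 CPM, with Obp1b at 0 in both. The part of these in the Taar results was not tested.

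Taar2, Taar3, Taar4 and Taar8b were not at least 2-fold apart by that description. Taar2 had 113 and 119 footprints (-0.05 [-0.43, 0.34]) on lower RNA (-0.55 [-0.93, -0.17]). Taar3 had 35 and 41 (0.11 [-0.58, 0.80]), with RNA of 78 and 73 reads. The phenylethylamine receptor gene Taar4 had 34 and 60 footprints (0.70 [0.07, 1.35]) on 212 and 139 RNA reads (-0.35 [-0.67, -0.03]), so footprints per RNA read were 2.07-fold higher. Taar8b had 11 and 24 footprints (1.01 [-0.08, 2.18]) with level RNA (0.15 [-0.32, 0.62]).

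Set side by side, the KO ratios of single members in the 2 populations were 1.24 and 1.37 for Taar7d footprints and -4.84 and -1.40 for Taar7f. For Taar6 they were 0.18 and 1.46, for Taar9 -0.82 and -2.37, and for Taar3 -2.04 and 0.11. The difference between populations was not tested, since each ratio comes from a single pair of columns.

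**Figure D4:**
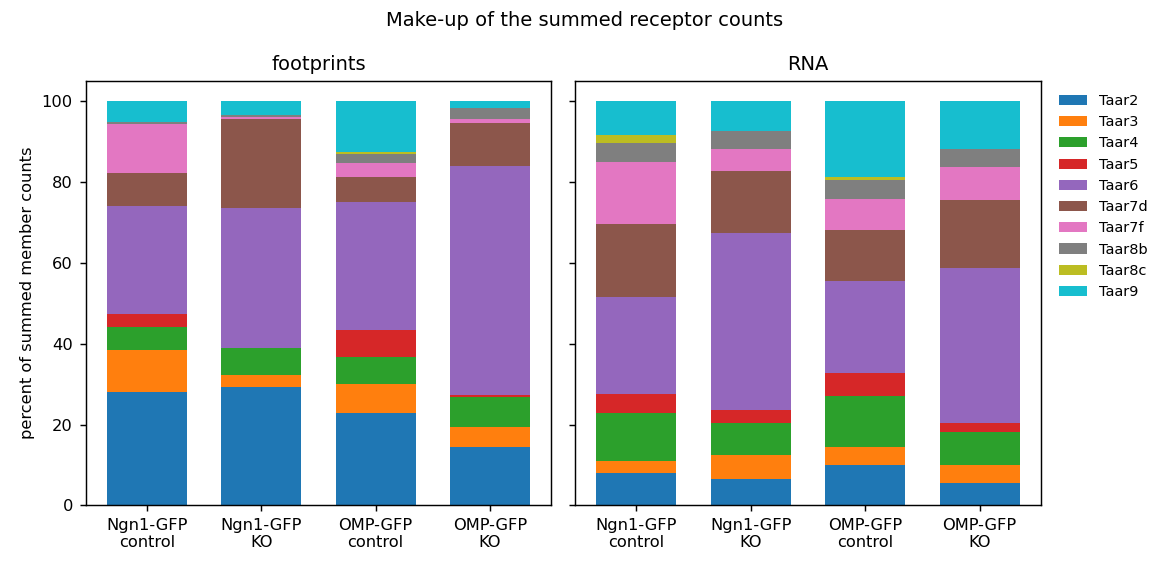
Percent of the summed counts of the 10 members that each member holds, for footprints (left) and RNA (right) in the 4 groups. The Taar6 segment is widest in the OMP-GFP KO footprints (56.7%), and the Taar2 segment is wider in footprints than in RNA in each group.

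Maturation was compared as OMP-GFP over Ngn1-GFP cells, which share their columns with the comparisons above. Summed over the members, Taar message was higher in the mature population in controls and in KO. In controls summed footprints had a log2 ratio of 0.96 [0.76, 1.16] and summed RNA 0.66 [0.57, 0.74]. In the KO the ratios were 1.77 [1.55, 2.0] and 0.97 [0.86, 1.09], or 1.18 [0.89, 1.47] and 1.11 [0.96, 1.26] without Taar6. Olfr sums differed less: 0.42 and 0.13 in controls and 0.30 and 0.43 in KO, for footprints and RNA. Relative to the Olfr sum, footprints of the members were thus higher by 0.54 [0.34, 0.74] in controls and 1.47 [1.25, 1.70] in KO. Their RNA was higher by 0.53 [0.44, 0.61] and 0.54 [0.43, 0.66]. The sum of the other 5 Taar genes was level in RNA in controls (-0.04 [-0.20, 0.11]) and higher in footprints (1.15 [0.66, 1.64]). In the KO that sum was higher in both, at 1.69 [1.49, 1.90] in RNA and 1.18 [0.73, 1.64] in footprints. Over all 15 Taar genes the RNA ratio in controls was 0.48 [0.41, 0.56].

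In controls, footprints of 4 of 8 members were at least 2-fold higher in OMP-GFP cells and 0 lower, where 6.11% of genes were higher and 17.4% lower. Among Olfr genes 23.7% were higher and 8.10% lower. Taar9 led with 19 and 62 footprints (2.24 [1.48, 3.06]) and 256 and 315 RNA reads, in columns of unlike depth (1.83 [1.59, 2.07]). Taar5 had 12 and 33 footprints (1.99 [1.00, 3.08]; RNA 0.90 [0.51, 1.29]) and Taar4 21 and 34 (1.23 [0.40, 2.09]; RNA 0.76 [0.50, 1.00]). Taar6 had 98 and 156 (1.20 [0.83, 1.58]; RNA 0.58 [0.39, 0.76]), which by library size alone was 0.988, under 2-fold. The 20-count minimum admits a low gene through whichever column is high, so the count of members is read with that in mind. Taar5 has 45 footprints in the pair, Taar4 55, Taar9 81 and Taar6 254. Among all genes with 20 to 50, 50 to 200 and 200 to 1000 such counts, 52.1%, 31.5% and 11.0% were at least 2-fold apart. Taar2 was 1.59-fold higher in footprints and 1.96-fold in RNA. In footprints per RNA read only Taar5 was at least 2-fold higher (1.09 [0.07, 2.12]) and none lower, 1 and 0 of 8, against 5.98% and 8.54% of genes. Of Olfr genes 22.0% were higher and 11.9% lower. By library size alone Taar5 was at 0.92 [-0.10, 1.94], no longer apart. In the same columns footprints of all 10 sustentacular markers were at least 2-fold lower in OMP-GFP cells, and their part in the Taar results was not tested.

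Taar7f and Taar8c were lower in OMP-GFP controls by their point values. Taar7f had 44 and 17 footprints (-0.84 [-1.74, -0.003]) and lower RNA (-0.36 [-0.65, -0.07]), and by library size alone its footprint ratio was -1.05, past 2-fold. Taar8c had 63 and 12 RNA reads (-0.86 [-1.89, 0.04]). Taar7d was near level in RNA (0.15 [-0.08, 0.38]) and had 30 and 31 footprints (0.58 [-0.19, 1.35]). In RNA 2 of 10 members were at least 2-fold higher, Taar3 (1.23 [0.78, 1.68]) and Taar9, and 0 lower, against 3.43% and 24.1% of genes. Of Olfr genes 11.0% were higher in RNA and 16.0% lower. Taar8b had 2 and 11 footprints, too few for a ratio.

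In the KO, footprints of 4 of 7 members were at least 2-fold higher in OMP-GFP cells and 0 lower, against 11.3% and 18.4% of genes. Among Olfr genes 28.4% were higher and 16.6% lower. Taar6 had 72 and 466 (2.48 [2.12, 2.86]), Taar3 6 and 41 (2.56 [1.32, 4.09]), Taar4 14 and 60 (1.89 [1.03, 2.84]) and Taar8b 1 and 24 (4.37 [1.76, 9.74]). Taar3, Taar4 and Taar8b had under 20 footprints in the Ngn1-GFP column and passed the minimum through the OMP-GFP column, where they are high. The count of 4 thus includes members admitted that way, and the Taar8b ratio rests on 1 Ngn1-GFP footprint. Taar8b has 25 footprints in the pair, Taar3 47, Taar4 74 and Taar6 538. Among all genes with 20 to 50, 50 to 200 and 200 to 1000 such counts, 61.0%, 38.8% and 13.8% were at least 2-fold apart. Between these columns summed vessel and mesenchyme markers went from 1573 to 108 CPM and summed horizontal basal cell markers from 118 to 0.732 CPM, with Krt14 and Trp63 at 0 in OMP-GFP cells, and their part in the Taar results was not tested. RNA of Taar4, Taar7d, Taar7f and Taar9 was at least 2-fold higher, 4 of 9 members with 0 lower, against 4.77% and 16.4% of genes. Of Olfr genes 20.2% were higher in RNA and 6.57% lower. By library size alone Taar4 (0.90) and Taar7d (0.990) were under 2-fold. Only Taar4 was among the 4 in both assays. Taar6 RNA differed by 0.77 [0.59, 0.95], and its footprints per RNA read were 3.27-fold higher in OMP-GFP cells. Taar3, Taar6 and Taar8b were the 3 of 7 members at least 2-fold higher in footprints per RNA read, with 0 lower. The shares higher and lower were 9.78% and 13.2% over all genes and 17.6% and 24.3% over Olfr genes. Taar8b again rests on that 1 footprint, and Taar3 on 6 in the Ngn1-GFP column. Taar9, first in controls, had 7 and 13 footprints in the KO (0.68 [-0.75, 2.25]) while its RNA difference was as in controls (1.64 [1.25, 2.05]).

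**Figure D5:**
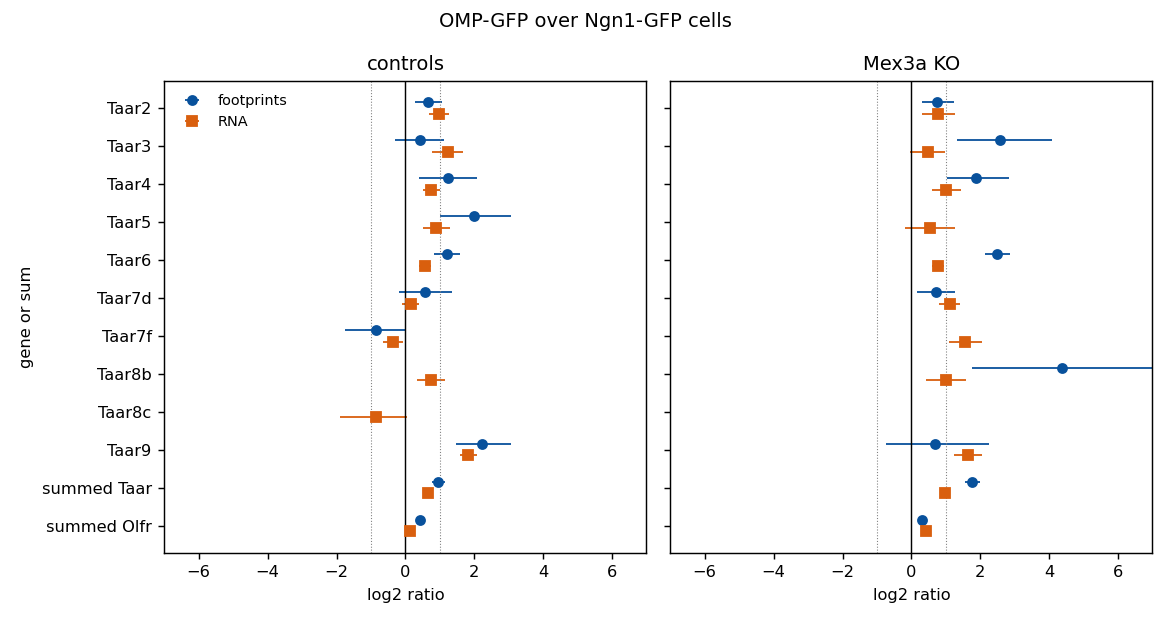
Log2 ratio of OMP-GFP over Ngn1-GFP cells in controls (left) and KO (right) for footprints (circles) and RNA (squares), with 95% counting intervals and dotted lines at 2-fold. Nearly all members lie right of 0, with Taar7f in controls left of it in both assays and Taar8c RNA in controls at -0.86 with an interval across 0.

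The signalling and transport genes that Taar neurons use were compared as a list of 23. In controls 6 of 22 measured had at least 2-fold higher footprints in OMP-GFP cells and 0 lower, with a median log2 ratio of 0.80 against -0.02 for all genes, and in KO 5 of 22 and 0 with 0.79. Over all genes 6.11% were higher and 17.4% lower in controls, and 11.3% and 18.4% in KO. By deletion of Mex3a, 0 of 22 were 2-fold apart in either population, where 6.49% of all genes were higher and 10.8% lower in Ngn1-GFP cells and 7.12% and 8.54% in OMP-GFP cells, with medians of 0.19 in Ngn1-GFP and 0.13 in OMP-GFP cells. Gfy, which encodes a Golgi protein of olfactory neurons, had footprint ratios of 0.19 and 0.22. Its RNA ratios were 0.89 and 0.32, and its footprints per RNA read gave -0.70 and -0.10. The footprint ratios of Gnal, the olfactory G-protein subunit gene, were 0.19 and 0.49, with RNA at 0.37 and 0.08. Markers of the dorsal zone, where most Taar neurons lie, were a list of 5. For the deletion their median footprint ratio was -0.13 in Ngn1-GFP cells (4 measured) and -0.06 in OMP-GFP cells (5 measured). In OMP-GFP cells 1 was at least 2-fold lower and 0 higher. For OMP-GFP over Ngn1-GFP in controls the median was 0.41, with 1 of 5 higher and 0 lower. The 4 ventral zone markers had medians of -0.20 and -0.36 for the deletion, with 0 apart. For the populations in controls it was -0.46, with 1 of 4 lower and 0 higher.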

How the data were processed

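Per the submitters' processing notes, reads were handled with FastQC, cutadapt and STAR on mm10, without versions. The authors deposited footprint and RNA counts over coding sequences, the coding length, RPKM, TPM and a translational efficiency ratio, per the file headers. RPKM and TPM recomputed from the deposited counts without difference beyond rounding. The sources used here do not say how 2 libraries became 1 column, and no test was made.

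Counts were scaled by TMM (edgeR 4.0.16, R 4.3.3) over 13479 footprint and 16388 RNA genes kept by filterByExpr (minimum count 10, total 15). Python 3.11.15 (scipy 1.17.1, pandas 2.3.3, numpy 2.4.6, matplotlib 3.10.9) gave ratios and plots. Intervals are exact conditional binomial 95%, and approximate for footprints per RNA read. Those of footprints and RNA were tried on simulated Poisson counts, the model that they assume. That check holds no spread between libraries or mice and cannot show their coverage for these data. A count of 0 was set to 3. A difference was described as at least 2-fold where its interval excluded 1, with at least 20 counts in the pair. Alternatives were library size alone, DESeq2 1.42.0 size factors, TMM without receptor, mitochondrial and ribosomal protein genes, other minimum counts and other sums. All 10 members are named, besides Mex3a, the 3 list genes with most footprints (1 of them is not reported here) and the 3 genes of nearest profile. Members and lists were chosen with earlier results of these data known.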

Additional observations from a re-analysis of the deposited data

How the results depend on the processing

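No paired analysis was possible because the table has 1 column per group, and for the same reason no replicate could be left out. Of 301 alternative values of single members none left the interval of the value reported. Nearly all were other scalings, which shift all genes of a comparison by the same amount. That amount was small beside most of these intervals, so the outcome was close to fixed beforehand and says little. Of 36 single-member differences of at least 2-fold, library size alone ended 6, those named with it above, and added 1 (Taar7f footprints in controls). The other scalings ended 0 and each added 1, Taar8b RNA of OMP-GFP over Ngn1-GFP in KO. Without Taar6, the member with most counts, the OMP-GFP KO sums turned from higher to level (-0.045 in footprints, -0.052 in RNA, 0.0069 per RNA read). The same sum gave -0.36 in footprints, -0.48 in RNA and 0.11 per RNA read for the Ngn1-GFP KO. For OMP-GFP over Ngn1-GFP in KO it gave 1.18, 1.11 and 0.070. Without Taar7 and Taar8 members, the Ngn1-GFP KO had 0.28 in RNA and -0.52 per RNA read, and the control RNA difference between populations was 0.97. Library size alone gave 0.75 and 1.55 for footprints of OMP-GFP over Ngn1-GFP in controls and KO and 0.85 for RNA in KO. It moved medians of all genes by up to -0.23. Over all 15 Taar genes, a sum chosen after the data were seen, RNA gave -0.22 and 0.46 for the KO of Ngn1-GFP and OMP-GFP cells, and 0.48 and 1.15 for the populations in controls and KO. Per RNA read it gave 0.15 and 0.15 for the deletions and 0.51 for the populations in KO. With 50 counts in the pair fewer members were measured. In footprints 1 of 3 was at least 2-fold apart for the deletion in Ngn1-GFP cells. The number apart was 3 for the deletion in OMP-GFP cells and 2 for the populations in KO. Among all genes with 50 to 200 such counts, 25.2%, 22.0% and 38.8% were that far apart. With 200 to 1000 counts it was 4.64%, 5.23% and 13.8%. In RNA, 0 of 9 members were at least 2-fold apart for the OMP-GFP KO by library size alone. With 10 counts in the pair it was 2, of more members measured. For the populations in KO 2 of 9 were apart in RNA by library size alone. Shares of all genes under these RNA settings are not given here. Most members have under 200 footprints in a pair, where depth limits each ratio, and intervals leave out variation between mice.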

Other observations

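Besides the 10 members, 4 other Taar genes had reads, and how reads were divided among related Taar7 and Taar8 genes is not known, so single values are uncertain. Taar7a had 20, 15, 52 and 96 footprints in the 4 columns, Ngn1-GFP before OMP-GFP and control before KO, and Taar7b had 19, 27, 22 and 47. The KO of Ngn1-GFP cells had more Taar7b footprints than its control (1.13 [0.23, 2.06]), as for Taar7d. Taar7e had 21, 15, 17 and 6 footprints, lower in the OMP-GFP KO (-1.62 [-3.25, -0.21]) although its RNA was 105 and 174 reads (0.99 [0.63, 1.35]). Taar8a had RNA counts of 58, 3, 11 and 0 and a single footprint, much as Taar8c had. Summed over the 5 Taar7 genes, footprints were 134, 104, 139 and 243, with a log2 ratio of 0.26 [-0.13, 0.64] in the Ngn1-GFP KO and 0.69 [0.38, 1.00] in the OMP-GFP KO, and RNA ratios were -0.71 [-0.86, -0.56] and 0.85 [0.72, 0.98].

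Of 8699 genes with at least 20 footprints in each column, the 3 whose 8 values lay nearest to those of the Taar sum were Kcna2, a potassium channel gene, Mns1, a gene of motile cilia and sperm tails, and Ttf2, a transcription termination factor gene. Their root mean squared distances were 0.118, 0.119 and 0.121 on the log2 scale. Kcna2 had 180, 109, 266 and 400 footprints, Mns1 453, 240, 633 and 920, and Ttf2 65, 31, 95 and 151. The 8 values come from 8 columns without replicates, and a profile this close is a description of these columns.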
